A study of Mus musculus with 11 samples.

Results

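Integrins are adhesion receptors built from an alpha chain and a beta chain, and 10 of the mouse genes that encode such chains are described here in sorted thymocytes. The 6 alpha chain genes are Itga1, Itga2, Itga4, Itgae, Itgal and Itgax, and the 4 beta chain genes are Itgb1, Itgb2, Itgb3 and Itgb7. They were chosen by name, with earlier results of these data known, from genes listed in the raw and normalised count tables of the series. They are 10 of the 10531 genes listed in all of those tables. The raw tables shared 53402 gene identifiers. In thymus and blood cells, an integrin is held bent and inactive until a signal inside the cell lets talin and kindlin bind the tail of its beta chain, after which the receptor grips its ligand. The alpha chain largely decides which ligand is bound. Itga1 and Itga2 pair with Itgb1 to bind collagens, Itgal and Itgax pair with Itgb2 to bind ICAM proteins and complement fragments, and Itgae pairs with Itgb7 to bind E-cadherin on epithelial cells.

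RNA was measured in CD24-negative, TCRβ-negative thymocytes sorted from mice, in 11 libraries and 5 groups. At postnatal day 0 there were 2 libraries of Bcl11b +/+, 2 of Bcl11b +/N440K and 2 of Bcl11b D/N440K, where N440K is an exchange in the Bcl11b protein and the meaning of D is not given in the labels. At postnatal day 7 there were 2 libraries of Tcf7 +/+ and 3 with the label Tcf7 F/F:Vav1-Cre. That label means both Tcf7 alleles floxed together with the Cre recombinase under the Vav1 promoter, which is active across blood cells. The labels do not say whether replicates were separate animals, so p-values measure the spread between these libraries, which may be technical. Replicates of a group were compared by chi-square per degree of freedom, which is near 1 where they differ by counting error only. It was 1.14 to 1.42 in the Bcl11b groups, 1.7 to 2.16 with the Tcf7 F/F:Vav1-Cre label and 4.94 in Tcf7 +/+. The day 0 p-values thus rest on replicates that differed by little more than counting error.

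Total counts ran from 999381 to 1842717 per library. Bcl11b itself measured 641 and 506 CPM (+/+), 185 and 225 CPM (+/N440K) and 152 and 204 CPM (D/N440K). Tcf7 did not check the label of its own table: it had 552 and 594 CPM in Tcf7 +/+ and 847, 658 and 694 in libraries with the Tcf7 F/F:Vav1-Cre label, so it was higher there (log2 fold change 0.35, edgeR adjusted p = 0.0497), and reads counted over all exons do not show whether one was removed. Each Bcl11b library held reads of Xist (351 to 602) and of Y-linked genes (177 to 239), so each held RNA of both sexes, that is of more than 1 animal. Whether the 2 replicates of a Bcl11b group shared animals is not given. In the Tcf7 table, by the same genes, both +/+ libraries were male. Of the labelled Tcf7 F/F:Vav1-Cre libraries, replicates 1 and 3 were female and replicate 2 male. The markers of the sorted fraction were present throughout, with Il2rb, Zbtb16, Id2, Il7r, Cd3e and Trdc summing to 2084 to 3479 CPM. Within that list Id2 rose and Zbtb16, Cd3e and Trdc fell in both N440K genotypes and in the labelled Tcf7 libraries. Il2rb rose in both N440K genotypes and was not called in the labelled Tcf7 libraries.

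Itga1 (ENSMUSG00000042284) lies on chromosome 13 at 114953096 to 115101964 of GRCm38, minus strand, and Itga2 (ENSMUSG00000015533) lies beside it on the same strand at 114833081 to 114932100, with 21 kb between them. Itgb1 is on chromosome 8 at 128685654 to 128733200. Itgal (127296260 to 127335138) and Itgax (128129547 to 128150657) are both on chromosome 7, and Itgb2 is on chromosome 10 at 77530252 to 77565708. Itga4 is on chromosome 2 at 79255426 to 79333123, Itgae on chromosome 11 at 73090583 to 73147446, Itgb7 on chromosome 15 at 102215995 to 102231944, minus strand, and Itgb3 on chromosome 11 at 104608000 to 104670476. All but Itga1, Itga2 and Itgb7 are on the plus strand. Exons of Itga1 overlap those of the predicted gene Gm49395 and exons of Itga4 those of Cerkl, which runs antisense. The strand of counting is not given in the sources used here, so reads in the overlap of Itga4 and Cerkl cannot be told apart. Gm49395 lies on the same strand as Itga1, so strand would not separate reads in that overlap. The other 8 genes share no exon base with another annotated gene.

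The stretches of 250 bases before the start sites of Itga1, Itga2, Itgb1 and Itgax are shown, because these genes changed most with the Bcl11b genotype. RefSeq promoter sequences (GRCm38.p6) were matched for 6 of the 10 genes. Each stretch is written 5′ to 3′ on the strand of its gene, with matches to the motifs searched in capitals.
Itga1 (chr13:115101965-115102214, minus strand): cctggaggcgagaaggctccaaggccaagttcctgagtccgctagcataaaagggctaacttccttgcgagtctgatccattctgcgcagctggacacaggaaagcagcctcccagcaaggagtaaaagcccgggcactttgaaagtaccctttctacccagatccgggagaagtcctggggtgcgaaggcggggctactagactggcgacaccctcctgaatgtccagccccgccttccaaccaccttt
Itga2 (chr13:114932101-114932350, minus strand): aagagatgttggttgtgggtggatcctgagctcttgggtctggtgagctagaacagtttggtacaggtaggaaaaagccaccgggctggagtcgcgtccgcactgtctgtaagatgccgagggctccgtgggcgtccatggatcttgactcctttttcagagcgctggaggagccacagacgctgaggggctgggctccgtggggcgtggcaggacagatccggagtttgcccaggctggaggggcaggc
Itgb1 (chr8:128685404-128685653, plus strand): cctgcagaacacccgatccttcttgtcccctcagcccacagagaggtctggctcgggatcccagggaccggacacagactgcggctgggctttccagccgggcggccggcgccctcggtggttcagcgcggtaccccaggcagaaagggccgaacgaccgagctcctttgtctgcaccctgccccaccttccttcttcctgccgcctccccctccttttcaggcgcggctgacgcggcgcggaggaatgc
Itgax (chr7:128129300-128129549, plus strand): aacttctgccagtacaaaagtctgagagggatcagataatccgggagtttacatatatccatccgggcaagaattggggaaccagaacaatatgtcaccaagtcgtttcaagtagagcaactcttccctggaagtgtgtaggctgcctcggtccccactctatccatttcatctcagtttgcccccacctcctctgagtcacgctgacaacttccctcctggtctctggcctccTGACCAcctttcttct

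The motifs were CTTTGAT, bound by TCF and LEF factors, TGTGGT, the core bound by Runx factors, AGGTGT, a core bound by T-box factors, and TGACCA, bound by zinc fingers of Bcl11a. Both strands were searched, and no motif holds another. TGACCA was found in the Itgax stretch, 16 to 11 bases before the start, and it occurs in 11.4% of all 32851 stretches of the same length. The Runx core occurs in 14% of them and was found, as its complement, in the Itga4 stretch 60 to 55 bases before the start. CTTTGAT (3.2% of all stretches) and AGGTGT (11.8%) were in none of the 6. The stretch of Itgb1 holds 21 CG pairs, that of Itga2 12, that of Itga1 10 and that of Itgax 5, with a median of 6 over all stretches. A match is a description of these letters and not a bound site.

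Levels are normalised read counts (CPM, counts scaled to a common library total), and comparisons between genes use CPM per kilobase of merged exon. Every gene of the 10 had at least 26 reads in each library, the fewest for Itga2 in Bcl11b +/+. In Bcl11b +/+ the order per kilobase was Itgb7 (285 ± 1.9, SD, n = 2), Itgal (200 ± 9.73), Itgae (160 ± 6.68), Itgb2 (148 ± 3.23), Itgb3 (44.7 ± 3.94), Itga4 (36.1 ± 1.09), Itgb1 (24.5 ± 2.75), Itgax (6.75 ± 0.993), Itga1 (6.18 ± 0.345) and Itga2 (3.79 ± 0.0792). The first 4 thus lay far above the collagen-binding alpha chains, and Itgax and Itga1 did not differ beyond their spread. In D/N440K the same 4 genes were highest, with Itgb7 at 361 ± 7.39, Itgal at 232 ± 3.34, Itgb2 at 186 ± 1.93 and Itgae at 151 ± 6.15, and Itgax (27.1 ± 1.52) and Itgb3 (26.2 ± 7.74) did not differ beyond their spread. At postnatal day 7 in Tcf7 +/+, Itgb7 (182 ± 6.87) and Itgal (176 ± 3) did not differ beyond their spread, Itgax stood at 52.3 ± 11.6, and Itga2 (10.7 ± 1.51) and Itga1 (8.42 ± 1.07), the lowest, did not differ beyond their spread. Itga1 has 18599 bases of merged exon, more than any other of the 10. The Bcl11b and Tcf7 tables were normalised separately and differ in age, so no test was made between their levels.

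**Figure D1:**
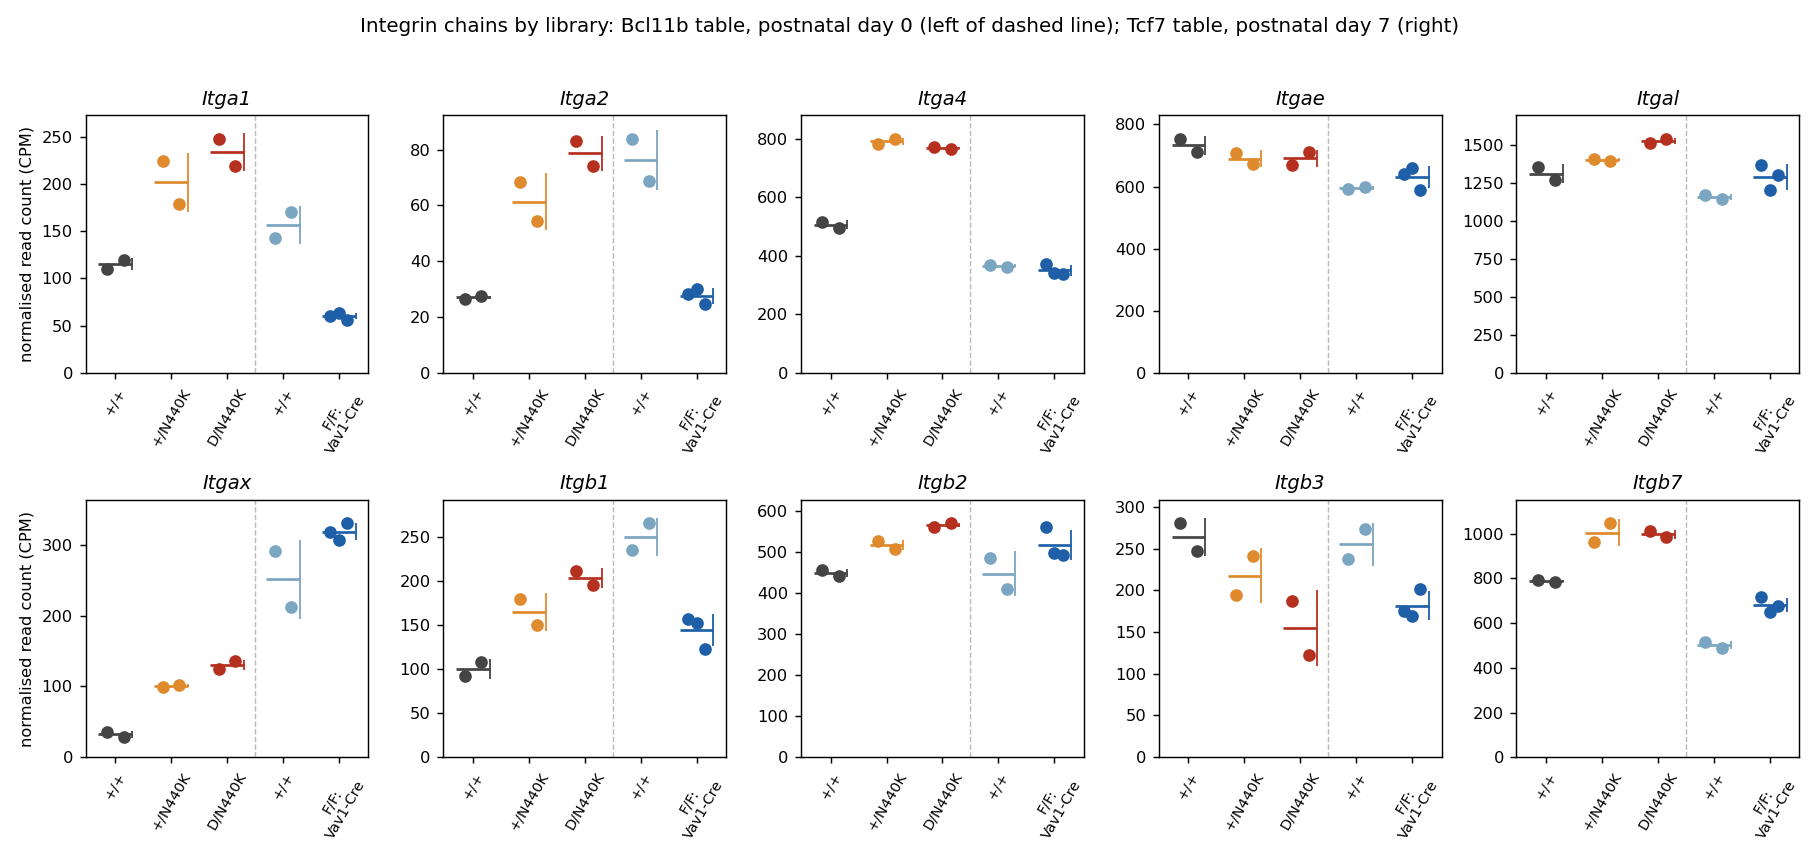
Normalised read counts (CPM, y axis from 0) of the 10 integrin genes in each of the 11 libraries, by group on the x axis, with the group mean as a line and the SD as a bar. Itga1, Itga2 and Itgb1 were higher in both N440K genotypes than in Bcl11b +/+ and lower in libraries with the Tcf7 F/F:Vav1-Cre label than in Tcf7 +/+, and Itgae stayed between 590 and 754 CPM in every library.

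Most of these 10 integrin genes were more abundant in the N440K genotypes than in +/+. They were chosen with earlier results of these data known, so the counts that follow are no independent test of integrins as a group. Of 8 other integrin chains tested, 1 rose and 1 fell in +/N440K, and 1 rose and 2 fell in D/N440K. In the comparison of +/N440K with +/+, 6 of 10 rose and none fell (edgeR adjusted p under 0.05), while 4.79% of all 10910 genes tested rose, 5.3% fell and 10.1% were called in either direction. For D/N440K against +/+, 8 rose, 1 fell and 1 was not called, where 6.1% of all genes rose, 6.31% fell and 12.4% were called in either direction. The groups did not overlap in any of the 10 in either comparison, as for 47.8% and 51% of all genes. The median log2 fold change of the 10 was 0.50 and 0.47, beside 0.002 and 0.001 over all genes. The comparisons share the +/+ libraries, so they are not independent. With DESeq2, 6 genes were called in each. In bulk RNA of a sorted fraction, fewer cells of a type and less RNA per cell cannot be told apart.

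**Figure D2:**
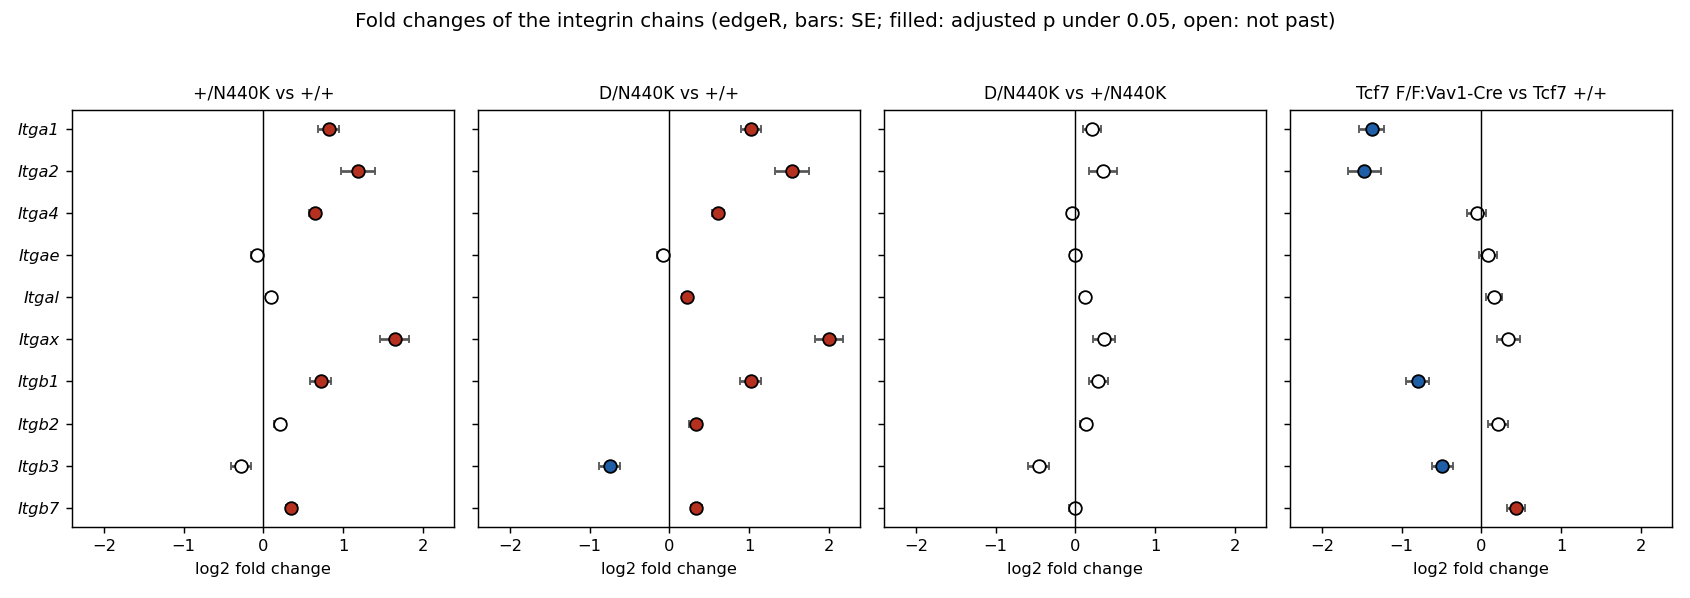
The log2 fold change (x axis) of each integrin gene (y axis) in the 4 comparisons, with the SE as a bar. Filled circles passed an edgeR adjusted p of 0.05 (red higher, blue lower) and open circles did not, and Itga1, Itga2 and Itgb1 stand right of 0 in the comparisons with Bcl11b +/+ and left of 0 in the comparison with Tcf7 +/+.

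The collagen receptor chains Itga1, Itga2 and Itgb1 rose with N440K. Itga1, the alpha chain CD49a known from tissue-resident lymphocytes, measured 110 and 120 CPM (+/+), 224 and 180 CPM (+/N440K) and 248 and 220 CPM (D/N440K). It rose by 0.82 ± 0.128 (log2 fold change ± SE, edgeR adjusted p = 8.419e-06) in +/N440K and by 1.02 ± 0.125 (edgeR adjusted p = 4.728e-08) in D/N440K. Itga2, the alpha chain CD49b used to mark NK cells, measured 26.6 and 27.4 CPM (+/+), 68.5 and 54.3 CPM (+/N440K) and 83.1 and 74.3 CPM (D/N440K). Every mutant library lay above both +/+ libraries, with a log2 fold change of 1.19 ± 0.218 (edgeR adjusted p = 0.0001096) and 1.54 ± 0.209 (edgeR adjusted p = 4.051e-07). Itgb1, the beta chain shared by many alpha chains, measured 92.1 and 108 CPM (+/+), 180 and 150 CPM (+/N440K) and 212 and 195 CPM (D/N440K). The rise of Itgb1 was 0.72 ± 0.134 (edgeR adjusted p = 0.0001403) in +/N440K and 1.02 ± 0.13 (edgeR adjusted p = 1.208e-07) in D/N440K. These 3 genes kept their calls with each library left out.

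In the same libraries the NK and ILC1 markers Eomes, Ncr1, Klrb1c, Klrd1, Prf1 and Gzma summed to 374 to 432 CPM in +/+, 850 to 883 in +/N440K and 978 to 1126 in D/N440K. Of these 6 markers, 5 rose in +/N440K and 6 in D/N440K. Double positive and mature T cell markers went the other way, from 523 to 529 CPM in +/+ to 69.4 to 70.1 and 48.8 to 60.1. Of the sort markers, Cd24a and Trbc2 fell in both N440K genotypes against +/+. The erythroid markers Hba-a1 and Hbb-bs rose in D/N440K against +/+ and against +/N440K. The part of these lists in the rise of Itga1, Itga2 and Itgb1 was not tested. Of 7 platelet and megakaryocyte markers, which would bear on Itga2 and Itgb3, Pf4, Ppbp, Gp6 and Treml1 had 0 reads in every library of the Bcl11b table, and the list summed to at most 12.2 CPM there.

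Itgax, of the leukocyte integrins, had the largest fold change of the 10 genes in both N440K genotypes against +/+. Itgax encodes CD11c, known from dendritic cells and also carried by NK cells and other lymphocytes. Its level was 35.8 and 29.1 CPM (+/+), 99.6 and 103 CPM (+/N440K) and 125 and 135 CPM (D/N440K). The libraries of the 3 genotypes lay apart, and Itgax rose by 1.65 ± 0.183 (edgeR adjusted p = 9.492e-09) in +/N440K and by 2.01 ± 0.175 (edgeR adjusted p = 1.256e-11) in D/N440K. Of 7 tested dendritic cell markers none rose in either comparison and Siglech fell, and the summed level of the 9 markers was 344 to 541 CPM in +/+, 193 to 486 in +/N440K and 370 to 414 in D/N440K. Among 5 tested myeloid markers Lyz2 and S100a8 rose in both comparisons and Csf1r also in D/N440K, and the 7 myeloid markers summed to 127 to 168 CPM in +/+, 226 to 268 in +/N440K and 311 to 321 in D/N440K. The part of the dendritic cell or myeloid markers in the rise of Itgax was not tested.

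Itgal, the alpha chain of LFA-1, measured 1357 and 1266 CPM (+/+), 1408 and 1394 CPM (+/N440K) and 1510 and 1541 CPM (D/N440K). It rose in D/N440K by 0.22 ± 0.0632 (edgeR adjusted p = 0.01424), and its value in +/N440K was 0.10 ± 0.0633 (edgeR adjusted p = 0.4363). Leaving out +/+ replicate 2 ended that call (log2 fold change 0.17, edgeR adjusted p = 0.1892), as did leaving out D/N440K replicate 1 (0.235 at adjusted p = 0.06129) or replicate 2 (0.21 at adjusted p = 0.1043), and DESeq2 did not make it (0.22, adjusted p = 0.14). Its partner Itgb2 measured 457 and 443 CPM (+/+), 527 and 509 CPM (+/N440K) and 563 and 571 CPM (D/N440K). Itgb2 rose in D/N440K by 0.33 ± 0.078 (edgeR adjusted p = 0.002052), a call lost with DESeq2 (adjusted p = 0.06993), and in +/N440K its value was 0.21 ± 0.0785 (edgeR adjusted p = 0.09795).

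Of the chains known for homing to mucosa, Itga4 and Itgb7 rose and Itgae did not pass the test. Itga4, which pairs with Itgb1 or Itgb7 to bind VCAM-1 or MAdCAM-1, measured 516 and 494 CPM (+/+), 781 and 799 CPM (+/N440K) and 771 and 765 CPM (D/N440K). Both mutant genotypes had similar levels of Itga4, with a log2 fold change of 0.65 ± 0.0732 (edgeR adjusted p = 1.43e-08) in +/N440K and of 0.61 ± 0.0737 (edgeR adjusted p = 4.182e-08) in D/N440K. Itgb7, partner of Itgae and Itga4, measured 793 and 785 CPM (+/+), 964 and 1047 CPM (+/N440K) and 1013 and 984 CPM (D/N440K), with a rise of 0.35 ± 0.0686 (edgeR adjusted p = 0.0003388) and 0.34 ± 0.0689 (edgeR adjusted p = 0.0003434). Itgae, the CD103 chain of thymic and epithelial lymphocytes, measured 754 and 711 CPM (+/+), 709 and 671 CPM (+/N440K) and 671 and 710 CPM (D/N440K). Its log2 fold change was -0.08 in both comparisons (edgeR adjusted p = 0.6041 and 0.5691).

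Itgb3, which pairs with the alpha V chain to bind vitronectin and with Itga2b on platelets, was the 1 gene of the 10 that fell. It measured 280 and 247 CPM (+/+), 194 and 241 CPM (+/N440K) and 187 and 122 CPM (D/N440K). The D/N440K libraries lay below the others and far from each other. The fall in D/N440K was -0.75 ± 0.131 (edgeR adjusted p = 4.363e-05), moved to -0.49 (edgeR adjusted p = 0.01313) without D/N440K replicate 2, and was not past the test with DESeq2 (adjusted p = 0.1032). In +/N440K the log2 fold change of Itgb3 was -0.28 ± 0.123 (edgeR adjusted p = 0.1616), and it passed the test at -0.43 without +/N440K replicate 2 (edgeR adjusted p = 0.02105).

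Between D/N440K and +/N440K, none of the 10 genes passed the test with edgeR, DESeq2 or limma, where 0.532% of all genes were called, 0.284% higher and 0.247% lower. At an unadjusted p under 0.05, edgeR gave 3 of the 10, and 851 of all 10910 genes tested. The 3 were Itgax (log2 fold change 0.36 ± 0.136, edgeR adjusted p = 0.3545), Itgb1 (0.29 ± 0.117, edgeR adjusted p = 0.4297) and Itgb3 (-0.46 ± 0.135, edgeR adjusted p = 0.1259). The groups did not overlap in 7 of the 10, as for 35.4% of all genes, with a median log2 fold change of 0.13 beside 0 over all genes. Itgb3 passed the edgeR test with +/+ replicate 1 left out (-0.466, adjusted p = 0.04449), with +/N440K replicate 1 left out (-0.62, adjusted p = 0.009117), with D/N440K replicate 1 left out (-0.82, adjusted p = 0.002793) and without the low-count filter (-0.46, adjusted p = 0.02089). In the other 12 of 16 alternatives Itgb3 did not pass, and its value ranged from -0.824 to -0.214 over all 16. Its D/N440K libraries lay far apart, at 187 and 122 CPM.

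With the Tcf7 F/F:Vav1-Cre label, the collagen receptor chains fell and Itgb7 rose. The 10 integrins split into 1 that rose, 4 that fell and 5 not called, where 12% of all 12366 genes tested rose, 11.1% fell and 23.2% were called in either direction. The groups did not overlap in 8 of the 10, as for 48.8% of all genes, and the median log2 fold change was 0.01 beside -0.01 over all genes. Itga1 had 143 and 171 CPM in Tcf7 +/+ and 60.6, 63.3 and 56.2 in the labelled libraries, a fall of -1.38 ± 0.157 (edgeR adjusted p = 4.989e-06). Itga2 had 84 and 68.8 CPM against 28.3, 29.9 and 24.5, a fall of -1.47 ± 0.203 (edgeR adjusted p = 4.263e-05). For both genes all 3 labelled libraries lay far below the +/+ libraries. Itgb1 had 236 and 266 CPM against 158, 153 and 124, and it fell less, by -0.80 ± 0.142 (edgeR adjusted p = 0.0005216).

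The other genes moved less in this table. Itgb3 had 237 and 273 CPM in Tcf7 +/+ and 175, 169 and 201 in the labelled libraries, a fall of -0.49 ± 0.135 (edgeR adjusted p = 0.01427). It was not called by edgeR with labelled replicate 1 left out (-0.46, adjusted p = 0.08281), with labelled replicate 2 left out (-0.43, adjusted p = 0.1057) or without the low-count filter (-0.50, adjusted p = 0.05846). Itgb7 had 516 and 489 CPM against 716, 651 and 677, a rise of 0.44 ± 0.112 (edgeR adjusted p = 0.008755). Itgax had 291 and 212 CPM against 319, 306 and 330, Itgal 1169 and 1141 against 1371, 1201 and 1304, and Itgb2 486 and 410 against 561, 499 and 494. These 3 were not past the test, with log2 fold changes of 0.34 ± 0.142, 0.16 ± 0.103 and 0.21 ± 0.123. Without Tcf7 +/+ replicate 1, Itgax (0.59, edgeR adjusted p = 0.0002878) and Itgb2 (0.34, edgeR adjusted p = 0.02825) passed. Itga4 had 369 and 362 CPM against 371, 341 and 337 (-0.06 ± 0.119), and Itgae 591 and 599 against 640, 660 and 590 (0.08 ± 0.111), so that the groups overlapped in both.

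Sex and genotype were partly joined in this table. With sex as a term, Itga1 and Itga2 kept their calls, and Itgb1 (-0.71, edgeR adjusted p = 0.06579), Itgb3 (-0.595, edgeR adjusted p = 0.1124) and Itgb7 (0.37, edgeR adjusted p = 0.2189) did not. Among the male libraries alone, 2 against 1, edgeR called 0 genes of the table and 1484 had an unadjusted p under 0.05, among them 3 of the 10. There Itga1 stood at -1.29, Itga2 at -1.34 and Itgb1 at -0.70. The NK and ILC1 markers summed to 542 to 656 CPM in Tcf7 +/+ and 388 to 475 in the labelled libraries, where 4 of the 6 fell. Dendritic cell markers went from 1112 to 1535 CPM in +/+ to 1631 to 1773, with 4 of 8 tested higher, and myeloid markers from 382 to 648 CPM to 976 to 1115. B cell markers summed to 139 to 150 CPM in +/+ and 43.5 to 54.2 in the labelled libraries, and mast cell markers to 20.9 to 22.5 and 59 to 75.1. Double positive and mature T cell markers summed to 830 to 832 CPM in +/+ and 448 to 451 in the labelled libraries, with 4 of 5 tested lower and Cd4 higher. Stroma and endothelium markers went from 229 to 290 CPM to 373 to 422, with Pecam1 called, and of the sort markers Cd24a and Trbc1 fell. The part of these markers in the integrin changes was not tested.

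The effects of D/N440K and of the Tcf7 genotype share no library and were set against each other in 1 edgeR model over all 11 libraries. Its common spread between libraries (coefficient of variation beyond counting error) was 0.0969, beside 0.0445 in the Bcl11b table alone and 0.122 in the Tcf7 table alone. The effects differed in 5 of the 10 genes, all in the direction of a higher value in D/N440K, where 5.66% of 12249 genes differed in that direction, 5.83% in the other and 11.5% in either. The difference was 3.01 ± 0.291 for Itga2 (log2 scale, edgeR adjusted p = 3.586e-08), 2.41 ± 0.206 for Itga1 (edgeR adjusted p = 6.2e-09) and 1.82 ± 0.202 for Itgb1 (edgeR adjusted p = 3.411e-07). These 3 genes were called in both comparisons and in opposite directions. Itgax (1.67 ± 0.238, edgeR adjusted p = 1.518e-05) and Itga4 (0.67 ± 0.132, edgeR adjusted p = 0.0008369) also differed. For Itgb7, which rose in both, the difference was -0.10 ± 0.124 (edgeR adjusted p = 0.6891), and for Itgb3, which fell in both, it was -0.27 ± 0.216 (edgeR adjusted p = 0.4874). Age differs between the tables along with the genotype, so a difference of effects cannot be told apart from a difference between postnatal days.

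**Figure D3:**
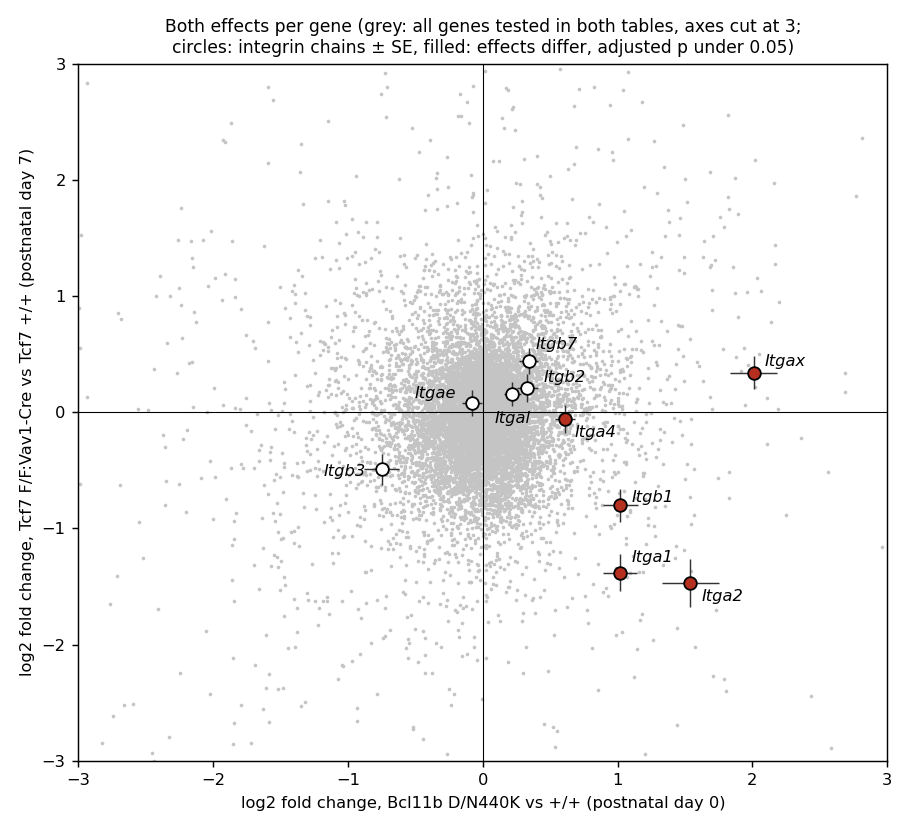
The log2 fold change of D/N440K against +/+ at postnatal day 0 (x axis) and of Tcf7 F/F:Vav1-Cre against Tcf7 +/+ at postnatal day 7 (y axis) for all genes tested in both tables (grey) and the 10 integrin genes (circles, bars SE). Itga1, Itga2 and Itgb1 lie at the lower right, with values of 1.02 to 1.54 on the x axis and -0.80 to -1.47 on the y axis, and filled circles mark the 5 genes whose effects differed.

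Since an integrin needs both chains, the ratio of alpha to beta chain RNA per kilobase was read in each library, as a description without a test. The ratio of Itgae to Itgb7 was 0.575 and 0.547 (Bcl11b +/+), 0.445 and 0.388 (+/N440K) and 0.4 and 0.436 (D/N440K). At day 7 it was 0.692 and 0.74 (Tcf7 +/+) and 0.541, 0.613 and 0.527 (labelled Tcf7 F/F:Vav1-Cre). It was lower in every mutant library than in the +/+ libraries of its table. Itga1 to Itgb1 stayed between 0.243 and 0.273 in all 6 Bcl11b libraries, as both genes rose together, and was 0.133 and 0.141 in Tcf7 +/+ against 0.0844, 0.0907 and 0.0998. For Itga2 to Itgb1 the values were 0.165 and 0.145 (Bcl11b +/+), 0.217 and 0.207 (+/N440K), 0.225 and 0.218 (D/N440K), 0.204 and 0.148 (Tcf7 +/+) and 0.103, 0.112 and 0.113 (labelled Tcf7 F/F:Vav1-Cre). Itga2 thus moved further than Itgb1 in each mutant group. The ratio of Itgax to Itgb2 went from 0.0498 and 0.0416 (Bcl11b +/+) to 0.12 and 0.128 (+/N440K) and 0.141 and 0.151 (D/N440K), and was 0.329 to 0.425 over the Tcf7 table, where the groups overlapped. Itgal to Itgb2 lay between 1.12 and 1.38 in all 11 libraries. It was 1.38 and 1.33 (Bcl11b +/+), 1.24 and 1.27 (+/N440K) and 1.25 and 1.25 (D/N440K), so lower in every N440K library. In the Tcf7 table the groups overlapped. The ratio of Itga4 to Itgb1 was 1.63 and 1.34 (Bcl11b +/+), 1.26 and 1.56 (+/N440K) and 1.06 and 1.14 (D/N440K), so that +/N440K overlapped +/+. In the Tcf7 table it went from 0.457 and 0.397 to 0.687, 0.65 and 0.796. With Itgb7 as the partner, Itga4 had ratios of 0.129 and 0.125 (Bcl11b +/+), 0.161 and 0.151 (+/N440K), 0.151 and 0.154 (D/N440K), 0.141 and 0.147 (Tcf7 +/+) and 0.103, 0.104 and 0.0986 (labelled Tcf7 F/F:Vav1-Cre).

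**Figure D4:**
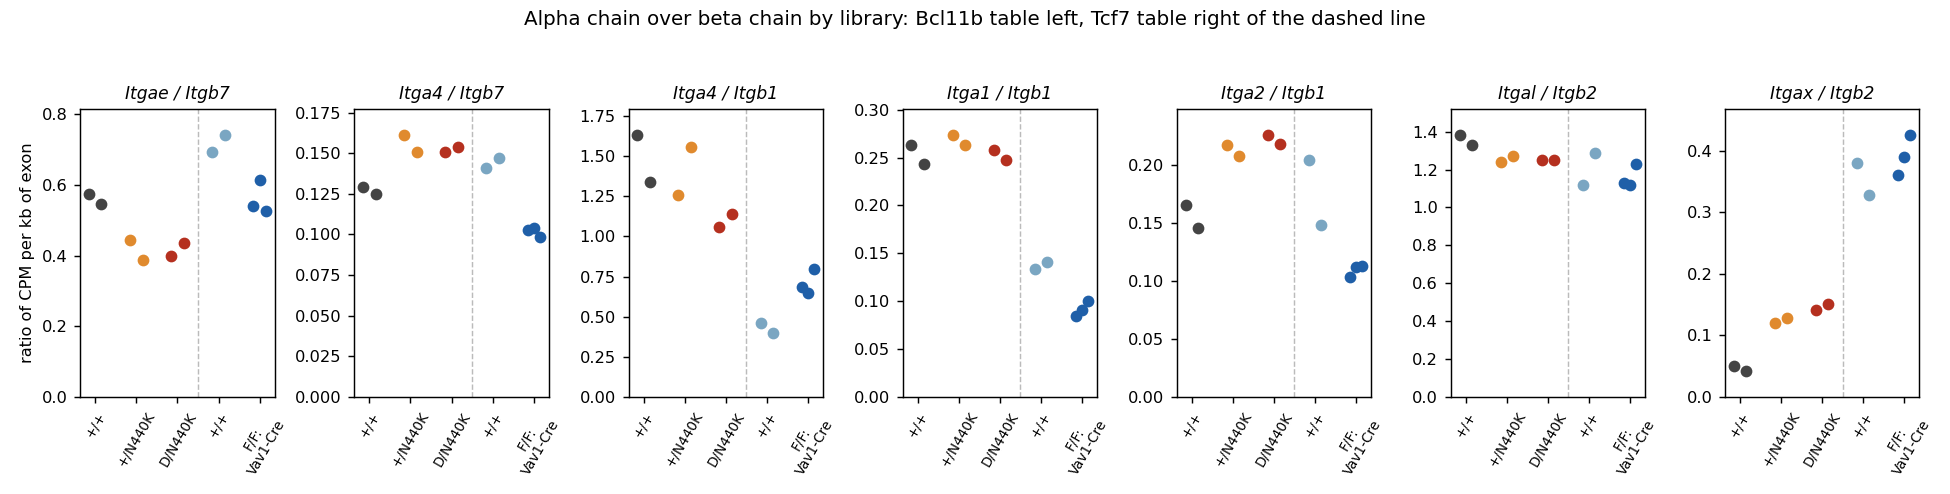
Ratio of alpha chain to beta chain RNA (CPM per kilobase of merged exon, y axis from 0) in each library for 7 known pairs, by group on the x axis. Itgae to Itgb7 is lower in every mutant library than in the +/+ libraries of its table, and Itga1 to Itgb1 is nearly level over the 6 Bcl11b libraries.

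Over the 11 libraries, each centred on the +/+ mean of its table, the log2 levels of Itga1, Itga2 and Itgb1 ran closely together, with Pearson r of 0.988 for Itga1 with Itga2, 0.982 for Itga1 with Itgb1 and 0.987 for Itga2 with Itgb1. Itgal and Itgb2 had r = 0.885, Itgae and Itgb7 0.034, and Itga4 and Itgax 0.94. These are descriptions over libraries that share +/+ controls and genotype steps. Of 10121 other genes, those most like Itga1 were Klf12 (r = 0.99), Gm19585 (0.988) and Slc7a1 (0.986), and those most like Itga2 were Dab2ip (0.996), Arsb (0.992) and Gm19585 (0.992). For Itgb1 they were Serpinb9 (0.992), Dab2ip (0.986) and Slamf7 (0.986). Itga4 was most like Chsy1 (0.989), Gm1966 (0.987) and Gsap (0.979), and Itgax most like Prr5l (0.983), Cobll1 (0.981) and Adgre5 (0.98). Itgb7 was nearest to Bcl2l1 (0.986), H2-D1 (0.981) and Pxn (0.976), and Itgb3 to Stard10 (0.952), Acvr1b (0.919) and Cnot8 (0.917).

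Among 17 other integrin chain genes, 8 passed the low-count filter at day 0 and 10 at day 7. The shares of all genes called, 10.1% in +/N440K, 12.4% in D/N440K, 0.532% between them and 23.2% in the Tcf7 comparison, stand beside the counts of this list and of the lists that follow. In +/N440K 1 of 8 rose and 1 fell (median -0.15), and in D/N440K 1 rose and 2 fell (median -0.39). Itgb4, a beta chain of epithelial laminin receptors, fell in both (-1.97 ± 0.294 and -1.91 ± 0.294, edgeR adjusted p = 3.635e-06 and 4.654e-06), and Itgad, a further partner of Itgb2, rose (1.57 ± 0.472 and 1.79 ± 0.459, edgeR adjusted p = 0.02263 and 0.004692). Itgb5, a partner of the alpha V chain, fell in D/N440K (-1.35 ± 0.262, edgeR adjusted p = 0.0001919). In the labelled Tcf7 libraries 5 rose, 2 fell and 3 were not called (median 0.54). Itgb4 (2.33 ± 0.202), Itgb5 (2.31 ± 0.227) and Itga5, a fibronectin receptor chain (1.49 ± 0.179), rose there with edgeR adjusted p of 2.188e-07, 8.861e-07 and 9.557e-06. Itga6 (-1.44 ± 0.206, edgeR adjusted p = 6.423e-05) and Itgad (-2.3 ± 0.374, edgeR adjusted p = 0.000215) fell there. Both values were chosen after they were seen and were not run in the alternatives. The +/N440K call of Itgad ended with +/+ replicate 1, +/+ replicate 2 or +/N440K replicate 1 left out (edgeR adjusted p of 0.1021, 0.1529 and 0.2176), and its D/N440K call with +/+ replicate 2 left out (0.05555). None of the 8 passed between D/N440K and +/N440K, where Itgb5 had the lowest p (-0.78 ± 0.284, edgeR adjusted p = 0.3178).

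Of the genes that switch integrins on or off, 19 were tested in the Bcl11b table. In +/N440K 1 rose and 1 fell (median 0.03), a share near the 10.1% of all genes, and in D/N440K 2 rose and 3 fell (median -0.04), beside 12.4% of all genes. Sipa1, which turns off the small GTPase Rap1, rose in +/N440K (0.39 ± 0.0738, edgeR adjusted p = 0.0001669). Rasgrp1, an exchange factor for Ras-type GTPases, fell in +/N440K (-0.43 ± 0.0952, edgeR adjusted p = 0.001477) and in D/N440K (-0.58 ± 0.0974, edgeR adjusted p = 2.476e-05). With +/+ replicate 1 left out, Rasgrp1 in +/N440K went to -0.28 (edgeR adjusted p = 0.157). Tln2, a talin, rose in D/N440K against +/+ (0.50 ± 0.0872, edgeR adjusted p = 3.669e-05) and against +/N440K (0.47 ± 0.0866, edgeR adjusted p = 0.003066). With D/N440K replicate 2 left out, Tln2 against +/N440K went to 0.37 (edgeR adjusted p = 0.1371). Cyth1, a cytohesin, fell in D/N440K (-0.37 ± 0.106, edgeR adjusted p = 0.01362). It was not called with +/+ replicate 1, +/+ replicate 2 or D/N440K replicate 2 left out (edgeR adjusted p of 0.09215, 0.05723 and 0.2706). Sipa1 also rose in D/N440K (0.24 ± 0.0749, edgeR adjusted p = 0.02747), and Rasgrp2 fell (-0.29 ± 0.0897, edgeR adjusted p = 0.02275). Both values were chosen after they were seen and were not run in the alternatives. In the labelled Tcf7 libraries 2 of 20 rose and 5 fell (median 0), beside 23.2% of all genes. Rasgrp2, an exchange factor for Rap1 (-0.89 ± 0.145, edgeR adjusted p = 0.000219), and the adaptor Skap1 (-0.72 ± 0.139, edgeR adjusted p = 0.001032) fell, and with sex as a term Skap1 was not called (-0.595, edgeR adjusted p = 0.1168). Fermt2, a kindlin found mainly outside blood cells, had 72 reads there against 1 in Tcf7 +/+, a ratio of 53.2 (exact 95% interval 9.25 to 2130, counting error only, edgeR adjusted p = 0.0002742).

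Of 19 tested genes that carry the signal of a bound integrin, 3 rose and 2 fell in +/N440K (median 0.05), beside 10.1% of all genes called, and 4 rose and 3 fell in D/N440K (median 0.03), beside 12.4%. The adaptor Pxn, paxillin, rose in both (0.54 ± 0.0904 and 0.51 ± 0.0911, edgeR adjusted p = 3.38e-05 and 5.562e-05), as did the tensin Tns1 (0.54 ± 0.108 and 0.84 ± 0.105, edgeR adjusted p = 0.0003533 and 7.654e-08). Ptk2, focal adhesion kinase, fell in +/N440K (-1.35 ± 0.342, edgeR adjusted p = 0.005655). It was not called with +/+ replicate 2 or +/N440K replicate 1 left out (edgeR adjusted p of 0.07917 and 0.09007). In D/N440K Ptk2 also fell (-1.99 ± 0.383, edgeR adjusted p = 0.0001585), a value chosen after it was seen, and it kept that call in each of the alternatives run. The kinase Syk rose in D/N440K against +/+ (1.01 ± 0.124, edgeR adjusted p = 5.365e-08) and against +/N440K (0.52 ± 0.116, edgeR adjusted p = 0.02099). In +/N440K against +/+, also chosen after it was seen, Syk rose by 0.49 ± 0.132 (edgeR adjusted p = 0.01085), and it was not called with +/+ replicate 1 or +/N440K replicate 1 left out (0.1224 and 0.1398) or by DESeq2 (0.242). The call of Syk for D/N440K against +/N440K ended with +/N440K replicate 2 or D/N440K replicate 1 left out (edgeR adjusted p of 0.1296 and 0.4516). In the labelled Tcf7 libraries 5 of 20 rose and 3 fell (median 0.31), beside 23.2% of all genes, with the kinase Src (2.14 ± 0.215, edgeR adjusted p = 1.151e-06), the tensin Tns3 (1.54 ± 0.224, edgeR adjusted p = 7.427e-05) and Ptk2 (1.16 ± 0.201, edgeR adjusted p = 0.0003908) among those that rose.

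Of 21 integrin ligand genes, 6 passed the low-count filter at day 0 and 8 at day 7. In +/N440K 2 of 6 rose (median 0.20), beside 10.1% of all genes called, and in D/N440K 1 rose and 1 fell (median 0.14), beside 12.4%. The fibronectin gene Fn1 (0.97 ± 0.262, edgeR adjusted p = 0.01051) and the thrombospondin gene Thbs1 (1.20 ± 0.37, edgeR adjusted p = 0.02735) rose in +/N440K. With +/N440K replicate 1 left out, Fn1 went to 0.09 and Thbs1 to 0.745 (edgeR adjusted p of 0.922 and 0.4145), and neither was called with +/+ replicate 2 left out (0.06131 and 0.3016). Limma called Fn1 neither on counts (adjusted p = 0.05473) nor on CPM (adjusted p = 0.07412). In D/N440K, Thbs1 rose (1.34 ± 0.365, edgeR adjusted p = 0.008516) and Icam2, a ligand of LFA-1, fell (-0.81 ± 0.276, edgeR adjusted p = 0.0435). Thbs1 was not called with +/+ replicate 2 or D/N440K replicate 1 left out (edgeR adjusted p of 0.1493 and 0.1684), nor Icam2 with any of the 4 libraries compared left out (0.08465 to 0.2407). None passed between D/N440K and +/N440K, where Icam2 had the lowest p (-0.79 ± 0.275, edgeR adjusted p = 0.279). In the labelled Tcf7 libraries 4 of 8 rose and 1 fell (median 0.66), beside 23.2% of all genes, with Fn1 at 2.78 ± 0.32 (edgeR adjusted p = 5.928e-06), Thbs1 at 2.11 ± 0.311 (edgeR adjusted p = 8.347e-05) and Vcam1, the ligand of Itga4 with Itgb1, at -2.64 ± 0.331 (edgeR adjusted p = 1.542e-05). Against the +/+ libraries of each table, the summed myeloid markers given above were higher in both N440K genotypes and in the labelled Tcf7 libraries. Fn1 was not called in D/N440K (0.71 ± 0.275, edgeR adjusted p = 0.08857), where the myeloid sum was highest of the day 0 groups. Stroma and endothelium markers were higher in the labelled Tcf7 libraries. At day 0 they summed to 106.3 to 110.5 CPM in +/+, 73 to 88.1 in +/N440K and 74.5 to 83.5 in D/N440K. The part of either list was not tested. With DESeq2 the calls of Itgad, Rasgrp1, Ptk2, Fn1 and Thbs1 in +/N440K, of Itgad, Cyth1, Thbs1 and Icam2 in D/N440K, and of Tln2 and Syk between them were not made.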

How the data were processed

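RNA of 11 libraries was sequenced after an adapted RamDA-seq protocol (NSR and oligo(dT) primers), per the labels' protocols. The authors deposited whole counts per Ensembl gene and CPM tables. The tools named are STAR 2.7.3a, HTSeq 0.11.2, fastp 0.20.0, Picard 2.21.1, SAMtools 1.9 and edgeR, with mm10 (GRCm38), per the submitters' processing notes. The annotation release is not given in the sources used here. The deposited CPM equal counts over the library total of the listed genes times its TMM factor. In every library 100% of these CPM values gave back whole counts within 0.001.

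Counts of each table were filtered by filterByExpr, scaled by TMM and fitted with edgeR 4.0.16 (quasi-likelihood, R 4.3.3). There were 3 residual degrees of freedom per table and 6 in the model of all 11 libraries. Genes were called at a Benjamini-Hochberg adjusted p under 0.05 over all genes, two-sided. The SE is the absolute fold change over the root of F. Alternatives used DESeq2 1.42.0 and limma 3.58.1, other factors and filters, a replicate block, and each library left out, where a lone library was taken to vary like the others. Sex, male libraries and reads recovered from CPM were alternatives chosen after seeing the data. Exon lengths came from GENCODE M21.

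The members and lists were chosen with earlier results of these data known. The text names all 10 integrins, per list and comparison the 3 called genes of lowest p or else the first by p, and the 3 genes most correlated with each integrin called in at least 2 comparisons, of average log2 CPM 3 or more (prior count 2). Values given as chosen after they were seen lie outside this rule.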

Additional observations from a re-analysis of the deposited data

Results flagged for a closer look

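Of the 10 integrin genes, 5 had effects that differed between D/N440K against Bcl11b +/+ and Tcf7 F/F:Vav1-Cre against Tcf7 +/+, by an edgeR test of the difference itself over 11 libraries. The differences on the log2 scale were 2.41 for Itga1, 3.01 for Itga2, 1.82 for Itgb1, 1.67 for Itgax and 0.67 for Itga4. Itga1, Itga2 and Itgb1 were higher than +/+ in both D/N440K libraries and lower than +/+ in all 3 libraries labelled Tcf7 F/F:Vav1-Cre. All 5 calls held in the 18 alternatives run for this test, with adjusted p of at most 0.01089. One of these, added after seeing the data, has the sex of the Tcf7 libraries as a term and gave 2.33 for Itga1, 2.89 for Itga2, 1.73 for Itgb1, 1.73 for Itgax and 0.706 for Itga4.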

How the results depend on the processing

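Over 820 combinations of an integrin gene, a comparison and an alternative, 784 kept direction and side of the threshold, 18 lost a call, 7 gained one and 11 changed sign. The sign changes were all in values not past the test. Between D/N440K and +/N440K, Itgae went to 0.000218 with the stricter filter, 0.000446 with DESeq2 and 0.000648 with limma on CPM. With 1 library left out Itgae ranged there from -0.0457 to 0.0408 and Itgb7 from -0.0659 to 0.051. In the difference of effects Itgal ranged from -0.00798 (labelled Tcf7 F/F:Vav1-Cre replicate 2 left out) to 0.113, Itgb2 from -0.0288 (Tcf7 +/+ replicate 1) to 0.249 and Itgb3 from -0.628 to 0.00698 (D/N440K replicate 2). The causes were not tested.

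Counts of integrin genes called ranged, with 1 library left out, from 6 to 7 in +/N440K (6 with all), 8 to 9 in D/N440K (9), 0 to 1 between them (0), 4 to 7 in the Tcf7 comparison (5) and stayed at 5 for the difference of effects. Without the low-count filter 1 was called between D/N440K and +/N440K. In the Tcf7 comparison 2 were called with sex as a term and 0 in male libraries alone, which leave 1 labelled library. The numbers of all genes called moved more. For +/N440K they went from 1101 to 357 with DESeq2 and 726 to 1121 with a library left out, and for D/N440K from 1353 to 528 with DESeq2. Between D/N440K and +/N440K they went from 58 to 4 with DESeq2, 91 with no filter, and 25 to 91 with a library left out. For Tcf7 they went from 2863 to 1606 with no filter, 1112 with sex as a term, 0 in male libraries and 1700 to 4612 with a library left out, the extremes without labelled replicate 3 and Tcf7 +/+ replicate 1. For the difference of effects they went from 1407 to 898 with DESeq2, 861 with sex as a term and 861 to 2642 with a library left out.

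A replicate block by the label's number ended 1 integrin call, Itgb7 in the Tcf7 comparison (edgeR adjusted p = 0.07089), and 1 of the listed genes, Icam2 in D/N440K (0.05029), and gave 37 calls over all genes between D/N440K and +/N440K. Samples with the same number deviated together with r of -0.153 to 0.075. Replicates of the Bcl11b table differed little beyond counting error, so there this check cannot show whether the numbers pair them. The labelled Tcf7 F/F:Vav1-Cre replicate 3 has no +/+ library of its number and was not examined. For 607 combinations with the listed pathway genes, 552 kept direction and side and 55 lost a call. Itga2 (26 reads in 1 library) is the gene most limited by depth.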
